A study of Mus musculus with 167 samples.

Results

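The 10 genes described here are members of the circadian clock of the liver: Arntl, Npas2, Clock, Per2, Per3, Ciart, Nr1d1, Nr1d2, Dbp and Tef. They were taken from the array by the platform's gene annotation, and each is represented by its probe set with the highest mean over all arrays. They are 10 of the 18194 genes that the arrays name, and all 10 were among the 12622 genes bright enough to be tested. The question was how their levels, which vary with clock phase, differed by genotype, treatment and day in a long drug study.

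RNA was taken from the livers of 167 male C57BL/6 mice, 1 Affymetrix array per animal, which the labels give as 9 to 11 weeks old before dosing. The human CAR/PXR mice, called humanized below, carry the human forms of the nuclear receptors CAR and PXR in place of the mouse ones. The CAR/PXR knock-out mice lack both receptors, and the wild type mice have their own. In each genotype 1 arm received 0.05% (wt/vol) phenobarbital (PB), a barbiturate that activates CAR, in its drinking water, and the other arm was the control. The arms held 27 PB and 29 control arrays in humanized mice, 28 PB and 27 control arrays in the knock-out, and 29 PB and 27 control arrays in the wild type. Collection fell on days 1, 7, 14, 28 and 91 under dosing, and on day 119 after 4 weeks of recovery, with 3 to 5 arrays in each of the 36 groups. All mice lived under a 12 h light and 12 h dark cycle, and the labels place every death between 9 and 11 in the morning. The labels give that window for all animals and no time for any single animal. A different hour of death, a shifted clock and a changed amplitude or mean level therefore cannot be told apart. The tissue was bulk liver powder, in which fewer cells of a type and less RNA per cell cannot be told apart.

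All levels are log2 values, on which a difference of 1 is a 2-fold difference in signal. Array medians lay between 5.146 and 5.231, so that levels near 5 are near the middle of all probe sets, and Ciart, with a mean of 5.11, was above its array's median on 42 of 167 arrays. Hepatocyte markers (Alb, Apoa1, Ttr, Tat and Cps1) averaged between 13.80 and 14.25 in every liver. Nr1i3, the mouse gene for CAR, averaged 5.09 in humanized and 4.93 in knock-out controls, against 8.42 in wild type controls. It thus set the wild type apart from both altered genotypes, but it does not tell humanized from knock-out mice. A pair of arrays in the PB-treated humanized group of day 119 (animals 6026 and 6030) was near-identical and was averaged, which left 166 samples. Another near-identical pair, animals 4019 and 4024, carries different days of the PB-treated knock-out and was kept as labelled. Tests were limma fits of all 36 group means, with Benjamini-Hochberg adjustment over the 12622 genes and a call at an adjusted p under 0.05.

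The clock is a transcriptional loop. ARNTL (BMAL1) pairs with CLOCK or, in its place, NPAS2, binds E-boxes and turns on the Per genes, Ciart, Nr1d1, Nr1d2, Dbp and Tef. PER proteins and CIART then repress that pair, NR1D1 and NR1D2 (REV-ERB alpha and beta) repress Arntl and Npas2 through RRE motifs, and DBP and TEF act on D-boxes of further genes. In mouse liver the transcripts of Arntl and Npas2 decline over the light hours while Dbp climbs, so the level of either at a fixed hour is a reading of phase.

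The factors of the loop bind known motifs, and the stretches below show those found beside 5 of these genes, with the matched letters in capitals. They come from the RefSeq promoter windows of GRCm38.p6, which run from 250 bases before to 50 bases after a start. Of the 10 genes, 9 have a window. The Ciart stretch (chr3:95882257-95882354, minus strand) holds 3 E-boxes, CACGTG, whose first bases lie at -116, -58 and -44 from the start. The Per3 stretch (chr4:151044806-151044880, minus strand) holds 2 D-boxes, at -205 and -158. Tef has 2 windows, and each holds 1 E-box, in the stretches chr15:81802521-81802580 and chr15:81811251-81811310, both on the plus strand. The Nr1d1 stretch (chr11:98775381-98775430, minus strand) holds the weaker E-box variant CACGTT on its opposite strand, read here as AACGTG, at -28. One of the 2 Arntl windows holds an RRE, TAGGTCA, at 31 after the start (chr7:113207529-113207558, plus strand).
Ciart: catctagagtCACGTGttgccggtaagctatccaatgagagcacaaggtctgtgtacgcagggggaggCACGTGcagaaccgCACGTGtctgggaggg
Per3: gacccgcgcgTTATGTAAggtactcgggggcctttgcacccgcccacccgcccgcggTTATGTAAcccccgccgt
Tef, window 1: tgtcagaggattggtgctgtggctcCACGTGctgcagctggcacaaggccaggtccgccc
Tef, window 2: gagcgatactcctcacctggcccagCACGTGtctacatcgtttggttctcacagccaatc
Nr1d1: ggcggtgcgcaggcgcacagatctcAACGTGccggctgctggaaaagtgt
Arntl, window 2: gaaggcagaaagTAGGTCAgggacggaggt

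Over all 32851 windows, searched on both strands, the E-box CACGTG was found in 7.15%, its variant CACGTT in 4.68%, the D-box TTANGTAA in 2.32% and the RRE TAGGTCA in 2.61%. The windows of Npas2, Clock, Nr1d2 and Dbp held none of these letters. A match is a description of the sequence only.

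Arntl and Dbp ran opposite to each other from liver to liver. Across the 166 livers, after the mean of each group was subtracted, Pearson's r was -0.786 and Spearman's rho -0.653, with a permutation p of 1e-05 for each, the smallest that 100000 resamples within groups can give (two-sided; adjusted p = 3.5e-05 over a family of 7 sets). Without the 2 animals farthest from the median of Arntl, r was -0.774. The relation held inside most arms. Within the knock-out, r was -0.914 in PB livers (n = 28) and -0.881 in control livers (n = 27), although rho in those controls was -0.413 with an adjusted permutation p of 0.0876, and 1 animal (3016) lay far from the rest. Within humanized mice r was -0.757 in PB livers (n = 26) and -0.836 in control livers (n = 29). In the wild type r was -0.699 in PB livers (n = 29), and -0.306 in control livers (n = 27), where the permutation p of 0.197 did not pass. Dbp varied least in that last set: its SD within groups was 0.45, against 0.82 in PB-treated wild type, 1.04 and 0.97 in PB and control knock-out livers, and 1.32 and 1.34 in PB and control humanized livers. The median of Dbp was also lowest in wild type controls, at 5.39, close to the array medians. The part of such dim values in the weaker relation was not tested. The scale of the relation is visible in the plot of both genes.

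**Figure D1:**
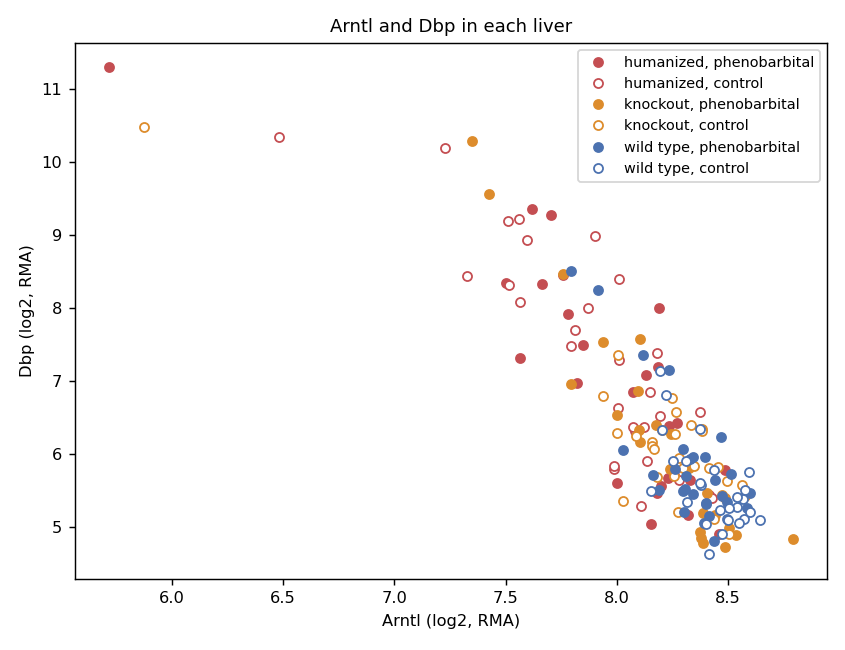
Each point is 1 liver (n = 166), with Arntl (log2) on the x axis and Dbp (log2) on the y axis, coloured by genotype, filled for phenobarbital and open for control. Wild-type controls gather at high Arntl and low Dbp, and 3 livers with Arntl under 6.5 and Dbp above 10 lie at the far end.

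The other members fell on 1 side or the other of this axis. Over the 166 livers, with group means subtracted, Npas2 went with Arntl (r = 0.825), and Clock did so weakly (r = 0.377, and 0.134 without the 3 livers with the lowest Arntl). Tef, which like Dbp encodes a D-box factor, went with Dbp (r = 0.856), as did Per3 (r = 0.790) and Nr1d2 (r = 0.667). Per2 (r = 0.454 with Dbp), Nr1d1 (0.330) and Ciart (0.269) followed Dbp less closely, and without the 3 livers with the lowest Arntl they stood at 0.270, 0.364 and 0.062. These correlations share arrays and normalization and are given as descriptions. Among tested genes that are no members, the 6 most like Dbp over the same livers were Tns2 (r = 0.666), Gdap10 (0.573), Jade1 (0.543), Slc38a3 (0.526), Coq10b (0.490) and 0610040J01Rik (0.489). Without the 3 livers with the lowest Arntl, Tns2 and Jade1 stood at 0.682 and 0.609 and the others lower, between 0.340 and 0.473. The genes most like Arntl were Rnf125 (r = 0.772), Pnrc1 (0.770), Clpx (0.760), C730049O14Rik (0.755), Coq8a (0.741) and Lgalsl (0.726), all of which were lower, between 0.472 and 0.614, without the same 3 livers. Over the 36 group means, Arntl and Dbp had r = -0.952. The 6 other genes most like Arntl were then Chka (r = 0.892), Pnrc1 (0.884), Lonrf3 (0.870), Ppard (0.847), Cry1 (0.842) and Blcap (0.836). Cry1 is the cryptochrome that represses with the PER proteins. The 6 most like Dbp were Mgst1 (r = 0.759), Zbed5 (0.729), A930033H14Rik (0.699), Gm19619 (0.697), Jade1 (0.695) and Psg21 (0.685).

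Dbp, the D-box factor with the widest swing, averaged 5.99 ± 0.59, 7.77 ± 2.07, 7.49 ± 0.92, 7.29 ± 2.05, 8.30 ± 0.77 and 7.82 ± 1.07 in humanized control livers on days 1, 7, 14, 28, 91 and 119 (SD, n = 4 or 5). In knock-out control livers it averaged 6.09 ± 0.55, 5.20 ± 0.34, 6.00 ± 0.29, 7.06 ± 2.02, 6.01 ± 0.61 and 6.25 ± 0.25 on the same days (SD, n = 3 to 5). In wild type control livers it averaged 5.47 ± 0.24, 5.14 ± 0.17, 5.22 ± 0.15, 5.17 ± 0.47, 6.14 ± 0.57 and 6.04 ± 0.71 (SD, n = 4 or 5). Humanized controls thus stood above wild type controls on 6 of 6 days, and knock-out controls on 5 of 6. On day 91 the groups did not overlap: single humanized controls had 7.28, 8.00, 8.08, 8.94 and 9.19, against 5.49, 5.91, 6.34 and 6.81 in the wild type. Across all days, 16 of 29 humanized controls and 2 of 27 knock-out controls lay above 7.14, the highest Dbp of any wild type control. With PB, Dbp averaged 8.72 ± 2.04, 7.10 ± 1.15, 5.79 ± 0.85, 6.01 ± 0.71, 6.57 ± 1.47 and 7.00 ± 1.20 in humanized PB livers on days 1 to 119 (SD, n = 3 to 5, with the near-identical pair of day 119 counted once). In knock-out PB livers it averaged 8.34 ± 1.75, 5.69 ± 1.06, 5.62 ± 0.82, 5.41 ± 0.60, 5.52 ± 0.53 and 6.48 ± 1.00, and in wild type PB livers 6.05 ± 0.83, 5.39 ± 0.39, 5.35 ± 0.08, 5.57 ± 0.22, 6.23 ± 1.15 and 6.60 ± 1.30 (SD, n = 4 or 5). In the order of the 36 means, humanized PB and knock-out PB livers of day 1 came highest, followed by the humanized controls of days 91, 119, 7, 14 and 28. The lowest were wild type controls of days 7 and 28. No neighbours in that order differed by as much as the larger of their SDs.

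Arntl, which encodes BMAL1, gave the mirror image at a smaller scale. It averaged 8.15 ± 0.17, 7.77 ± 0.50, 7.86 ± 0.26, 7.73 ± 0.84, 7.71 ± 0.22 and 7.93 ± 0.24 in humanized control livers on the 6 days, 8.20 ± 0.10, 8.50 ± 0.06, 8.29 ± 0.15, 7.79 ± 1.08, 8.17 ± 0.22 and 8.23 ± 0.10 in knock-out control livers, and 8.52 ± 0.09, 8.51 ± 0.05, 8.55 ± 0.07, 8.44 ± 0.14, 8.22 ± 0.06 and 8.34 ± 0.09 in wild type control livers (SD, n as above). Both altered genotypes averaged below the wild type on 6 of 6 days, but the knock-out less clearly. Knock-out and wild type controls were close on day 7 (8.50 and 8.51) and day 91 (8.17 and 8.22). The knock-out mean of day 28 includes animal 3016 at 5.88, where the others had 8.01 to 8.41. No wild type control was under 8.15, whereas 24 of 29 humanized controls and 6 of 27 knock-out controls were. With PB, it averaged 7.46 ± 1.03, 7.83 ± 0.14, 8.24 ± 0.15, 8.26 ± 0.12, 8.05 ± 0.37 and 7.99 ± 0.37 in humanized livers, 7.79 ± 0.42, 8.23 ± 0.35, 8.37 ± 0.30, 8.39 ± 0.18, 8.35 ± 0.11 and 8.21 ± 0.24 in knock-out livers, and 8.31 ± 0.18, 8.40 ± 0.06, 8.50 ± 0.10, 8.33 ± 0.12, 8.22 ± 0.17 and 8.18 ± 0.25 in wild type livers. In all, 13 of 26 humanized, 10 of 28 knock-out and 4 of 29 wild type PB livers were below every wild type control.

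**Figure D2:**
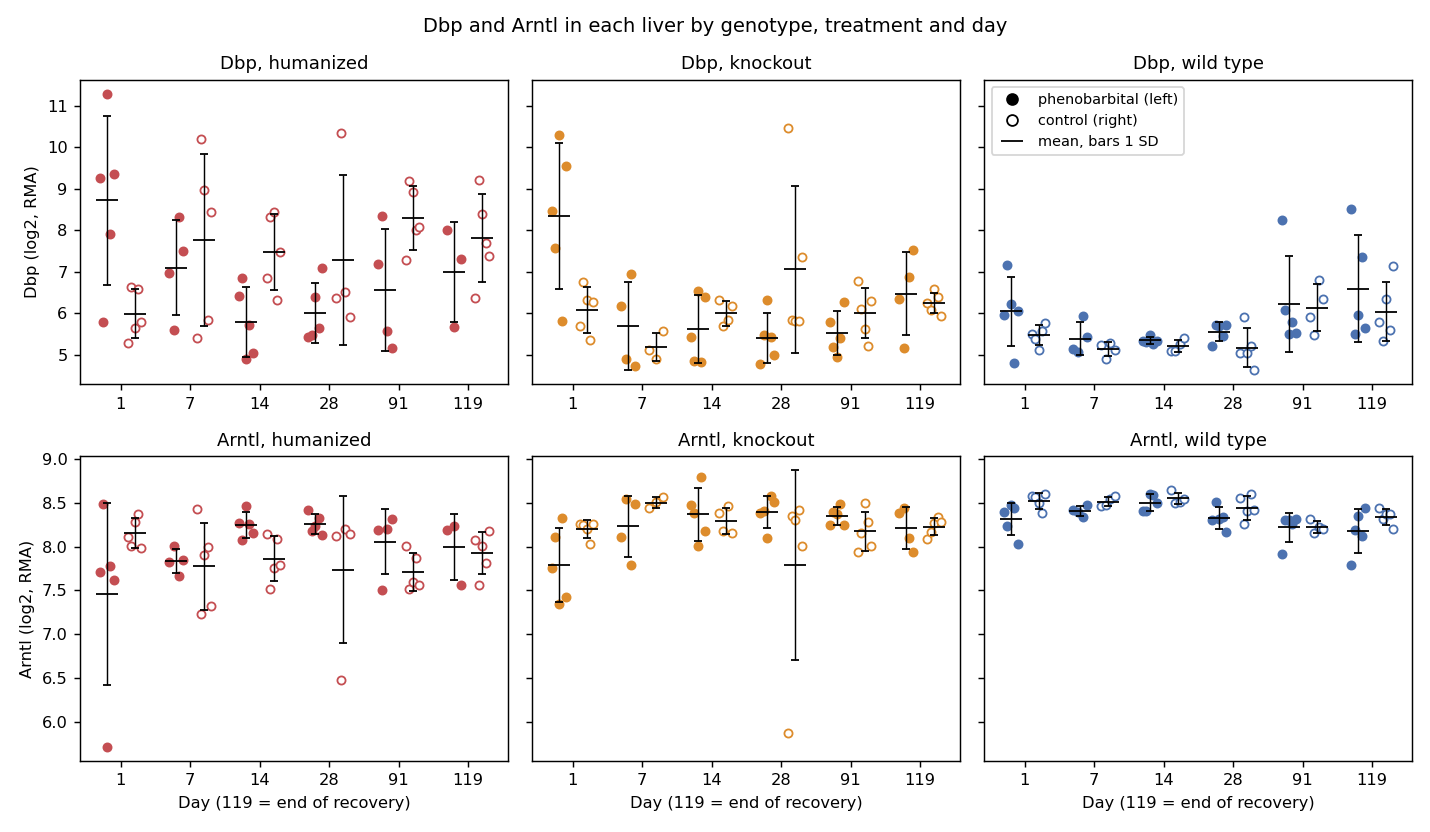
Dbp (upper panels) and Arntl (lower panels), log2 levels of each liver by day for the 3 genotypes, with filled points for phenobarbital on the left and open points for control on the right of each day, and black marks for the mean and 1 SD. The filled points of day 1 in humanized and knock-out mice reach the highest Dbp of their arms, and humanized controls spread up to 10.34.

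The other members were spread as follows over the arms. Npas2, the partner that can stand in for CLOCK, had a median of 6.71 (4.32 to 7.45) in humanized PB livers and 6.20 (4.49 to 6.95) in humanized controls, 6.79 (5.77 to 7.54) in knock-out PB livers and 6.64 (4.11 to 7.32) in knock-out controls, and 7.00 (5.60 to 7.75) in wild type PB livers and 7.11 (6.39 to 7.61) in wild type controls. Humanized controls were lowest, as for Arntl. Clock had medians of 8.46 and 8.52 in humanized PB and control livers, 8.55 and 8.66 in knock-out PB and control livers, and 8.58 and 8.57 in wild type PB and control livers. Nr1d2, the brighter of the REV-ERB genes here, had medians of 9.71 and 9.86, 9.37 and 9.66, and 9.30 and 9.20 in the same pairs of arms. No humanized control was below 9.33 for Nr1d2, whereas wild type controls reached down to 7.84. Tef had medians of 8.73 and 9.02, 8.62 and 8.71, and 8.52 and 8.55, and Per3 of 5.50 and 5.69, 5.38 and 5.31, and 5.29 and 5.22. Humanized controls were thus at the high end for the 3 genes that went with Dbp. Per2, whose protein closes the loop, had medians between 6.41 and 6.85 in the 6 arms, Nr1d1 between 5.30 and 5.69, and Ciart between 5.03 and 5.19. These spans were smaller than the range within any 1 of those arms.

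Untreated humanized livers differed from untreated wild type livers in most of the loop, averaged over the 6 days. Of the 10 genes, 8 were called, against 28.0% of all tested genes. Of these, 6 were higher, where 11.6% of all tested genes were, and 2 lower, where 16.5% were. Their median difference was 0.30, beside -0.01 for all tested genes. In the activating arm, Npas2 averaged 6.02 in humanized and 7.08 in wild type controls, a difference of -1.05 ± 0.13 (SE; limma adjusted p = 4.76e-11), and Arntl 7.86 and 8.43, a difference of -0.57 ± 0.09 (limma adjusted p = 5.54e-07). Clock, their partner, differed by -0.05 (limma adjusted p = 0.362), though the mean of its 4 probe sets gave -0.16 (limma adjusted p = 5.53e-06). Among the repressors, Nr1d2 averaged 9.95 and 9.11, a difference of 0.84 ± 0.11 (limma adjusted p = 1.35e-09), and Nr1d1 differed by 0.39 ± 0.06. Per3 differed by 0.47 ± 0.07 and the dim Ciart by 0.14 ± 0.04, while Per2, at 0.21 ± 0.15, did not pass (limma adjusted p = 0.313). Among the D-box factors, Dbp averaged 7.44 and 5.53, a difference of 1.91 ± 0.27 (limma adjusted p = 9.21e-09), and Tef 9.06 and 8.56, a difference of 0.50 ± 0.09. Each of the 8 called genes kept 1 direction on 6 of 6 days. The call of 8 stood whichever animal was left out, and Dbp then differed by between 1.77 and 2.02.

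Knock-out controls gave smaller values in the same contrast. They share the wild type controls with the humanized comparison, so the 2 sets of values are not independent. Here 2 of 10 genes were called, against 22.4% of all tested genes: Npas2 averaged 6.59 in knock-out and 7.08 in wild type controls, a difference of -0.48 ± 0.13 (limma adjusted p = 0.00423), and Nr1d2 averaged 9.59 and 9.11, a difference of 0.48 ± 0.12 (limma adjusted p = 0.000885). Arntl differed by -0.23 (limma adjusted p = 0.0679), Dbp by 0.57 (limma adjusted p = 0.133), Per3 by 0.19 (limma adjusted p = 0.0538) and Tef by 0.20 (limma adjusted p = 0.0838). With only the arrays compared in the fit, 4 genes were called, Dbp and Per3 joining them. Clock, Per2, Nr1d1 and Ciart lay between 0.02 and 0.10. Whether humanized and knock-out controls differ from each other was not tested.

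**Figure D3:**
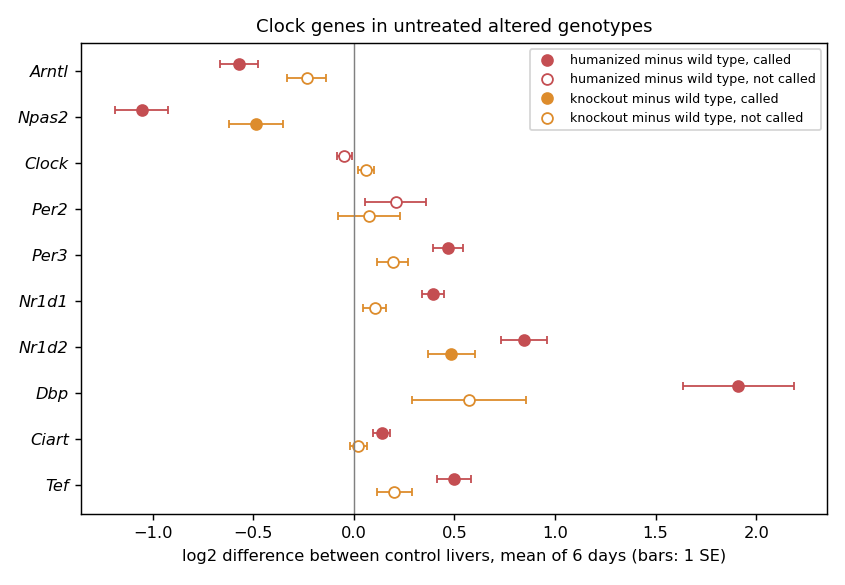
Log2 difference of control livers from wild-type controls for each gene, averaged over 6 days, with bars of 1 SE, for humanized (red, upper of each pair) and knock-out mice (orange, lower), filled where called. Dbp at 1.91 and Npas2 at -1.05 in humanized mice are farthest from 0.

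Other genes of the clock and its outputs are read against the same shares of all tested genes, 28.0% called in humanized and 22.4% in knock-out controls. Of 13 other clock genes, 11 were on the array, and 5 were called in humanized controls (2 higher and 3 lower) and 3 in knock-out controls (1 higher and 2 lower), the second count being near its share of all genes. Per1, the third Period gene, differed by 0.38, Cry1 by -0.69, Nfil3, which represses from the D-box, by -0.37, and the casein kinases Csnk1d and Csnk1e by -0.17 and 0.12. Of 10 clock outputs, Lpin1 (0.95), Usp2 (0.23) and Nampt (0.15) were higher and Elovl3 (-0.43) lower. Knock-out controls had Per1 higher by 0.38 and Cry1 and Csnk1d lower by -0.28 and -0.10, and Lpin1 (0.86), Nampt (0.37) and Gys2 (0.12) higher with Elovl3 lower (-0.38). Alas1, the first enzyme of haem synthesis and a known target of the D-box factors in mouse liver, differed by 1.29 in humanized and 1.26 in knock-out controls. Of that target list, 4 of 5 genes were on the array, but it includes Nr1i3 itself, which differed by -3.33 and -3.48, and Cyp2b10, the classical CAR target, which differed by 1.53 in humanized and -1.05 in knock-out controls. Of 8 glucocorticoid and stress genes, 2 were higher and 3 lower in humanized controls and 4 higher in knock-out controls, among them Fkbp5 at 0.31 in humanized and 0.56 in knock-out controls. Of 12 feeding and fasting genes, 10 were on the array, and 2 were called in humanized controls (Acaca at 0.23 and Srebf1 at -0.24), a share below that of all genes, and 4 in knock-out controls. The part of stress or feeding in the clock values was not tested.

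Markers of other cell types were set beside these values. Macrophage (0 of 4), endothelial (0 of 2) and stellate (0 of 3) markers gave no call in humanized against wild type controls by limma, the bile duct marker Sox9 differed by -0.41, and Ighm, the B cell marker tested, by 0.58. In knock-out against wild type controls, 3 of 4 macrophage markers and 1 of 3 stellate markers were higher, beside 22.4% of all tested genes called. The acinar markers on the array, 2 of 6 listed, were both lower in humanized controls (Cela1 by -0.94 and Cpa1 by -1.49). Their mean level ran from 6.30 to 10.19 in humanized and from 6.76 to 11.60 in wild type controls. Their part in the clock values was not tested.

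On day 1 of dosing, most PB livers of humanized and knock-out mice had more Dbp than any of their controls. Dbp was 9.27, 5.79, 11.30, 7.92 and 9.35 in humanized PB livers, against 5.29, 6.63, 5.65, 6.58 and 5.80 in humanized control livers. Of the 5 PB livers, 4 exceeded every control, and 1 (animal 6002) lay among them. These controls averaged less Dbp than the humanized controls of any other day. Arntl was 7.71, 8.49, 5.72, 7.78 and 7.62 in the same PB livers, against 8.11, 8.01, 8.28, 8.38 and 7.99 in the controls, and animal 6002 was again the exception. By limma the difference was 2.73 ± 0.65 for Dbp (adjusted p = 0.00152), -0.69 ± 0.22 for Arntl (adjusted p = 0.0276) and 0.75 ± 0.18 for Per3 (adjusted p = 0.00124), and 3 of 10 genes were called against 11.7% of all tested genes. Nr1d2 at 0.56 (limma adjusted p = 0.169) and Npas2 at -0.58 (limma adjusted p = 0.22) were not called. The Arntl call ended without animal 6003 (-0.25, limma adjusted p = 0.503), 5003 (-0.66) or 5004 (-0.63). In the fit of only these 10 arrays Per3 alone of the 3 kept its call, and Dbp had an adjusted p of 0.0821 by limma.

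The knock-out gave similar values on that day. Dbp was 8.47, 7.58, 10.29, 5.81 and 9.56 in knock-out PB livers, against 5.70, 6.77, 6.33, 5.37 and 6.28 in knock-out control livers. Again 4 of 5 PB livers exceeded every control and 1 (animal 4004) did not. Arntl was 7.76, 8.10, 7.35, 8.32 and 7.43, against 8.26, 8.25, 8.20, 8.03 and 8.26, so that the groups overlapped. Of the 10 genes 4 were called, all higher, against 8.08% of all tested genes called either way and 3.47% called higher: Dbp by 2.25 ± 0.65 (limma adjusted p = 0.0168), Nr1d2 by 1.01 ± 0.27, Nr1d1 by 0.67 ± 0.13 (limma adjusted p = 0.000272) and Per3 by 0.63 ± 0.18. Arntl, at -0.41, did not pass (limma adjusted p = 0.275). Single animals decided most of these calls. Dbp was not called without animal 4003 (1.77, limma adjusted p = 0.0951), 4005 (1.95) or 3001 (2.16), Per3 not without 4001 (0.57), 4003 (0.56), 4005 (0.54) or 3001 (0.60), and Nr1d2 not without 3005 (0.68). In a fit of only these 10 arrays none of the 4 passed, with adjusted p between 0.0909 and 0.124 by limma.

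Wild type mice gave no call on that day, against 12.0% of all tested genes. Dbp was 5.97, 7.16, 6.24, 4.82 and 6.06 in wild type PB livers, against 5.51, 5.39, 5.12, 5.58 and 5.76 in wild type control livers, a difference of 0.58 ± 0.65 (limma adjusted p = 0.648). Arntl was 8.40, 8.23, 8.47, 8.43 and 8.03, against 8.58, 8.57, 8.49, 8.38 and 8.60, a difference of -0.21 ± 0.22 (limma adjusted p = 0.625). Both genes overlapped between the arms. The fit shares a common variance per gene over all groups, so these SEs also carry the spread of the more variable genotypes. Within groups, the SD of Dbp was 0.45 in wild type controls and 1.34 in humanized controls. In the day 1 PB groups of humanized and knock-out mice Dbp spread widely, from 5.79 to 11.30 and from 5.81 to 10.29. For those groups the shared variance can make the SEs and adjusted p values too small. Whether the day 1 difference is larger in the altered genotypes than in the wild type was not tested.

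Genes next to the 10 in the loop also differed on day 1 in each genotype. Of 11 other clock genes tested, 2 were called in humanized, 3 in knock-out and 3 in wild type livers. Of all tested genes, 11.7%, 8.08% and 12.0% were called in the same order. Cry1 differed by -1.02 in humanized, -0.95 in knock-out and -0.66 in wild type livers (PB minus control), each called by limma. Nfil3 differed by -1.13, -0.67 and -0.70 in the same order, again all called. Per1 was called in the knock-out (-0.56), and Csnk1e in the wild type (0.40). Of 10 feeding and fasting genes tested, 3 were called in humanized livers (1 higher), 4 in the knock-out (3 higher) and 4 in the wild type (all lower). Angptl4, a gene of the fasted state, was lower in all 3 genotypes (-0.89, -1.10 and -1.50), and Pck1, the gluconeogenic enzyme, by -0.87 in humanized and -1.10 in wild type livers. Fasn (1.53), Acaca (0.77) and Srebf1 (0.60), which make fat in the fed state, were higher in knock-out PB livers, and Acaca (0.54) in humanized ones. Of 8 glucocorticoid and stress genes, 1 was called in humanized livers (Zbtb16, -1.14) and 1 in the knock-out (Mt1, -1.64), near those shares of all tested genes. Of 10 clock outputs, 1 was called in humanized livers. It was Tsc22d3, which glucocorticoids also induce, and it was lower (-0.999). The mean of the stress list ran from 7.83 to 8.27 in humanized PB livers and from 7.85 to 8.78 in their controls. Whether feeding or stress contributed to the clock values was not tested. Of the markers of hepatocytes and 6 other cell types, 1 of 5 hepatocyte markers was called (lower) in humanized PB against control livers of day 1, and none in knock-out livers, by limma. The shares of all tested genes given above apply to these counts too. Ighm differed by 1.09 in humanized (limma adjusted p = 0.064) and 1.06 in knock-out livers (limma adjusted p = 0.0863). The mean acinar marker level ran from 6.62 to 12.57 in humanized PB livers and from 6.53 to 7.66 in their controls, and from 6.68 to 9.44 in knock-out PB livers and from 6.52 to 6.86 in theirs. Their part in the clock values was not tested.

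Against the other 5 days of their own arm, these same 2 groups were the ones in which Arntl and Dbp were called in opposite directions, of 36 groups. In knock-out PB livers, day 1 minus the other days was 2.60 ± 0.50 for Dbp (limma adjusted p = 0.000179) and -0.52 ± 0.17 for Arntl (limma adjusted p = 0.0485), and Per3 (0.56), Nr1d1 (0.48), Nr1d2 (0.98) and Tef (0.52) were also higher, which made 6 of 10 genes against 7.57% of all tested genes. In humanized PB livers it was 2.23 ± 0.51 for Dbp (limma adjusted p = 0.000927), -0.61 ± 0.18 for Arntl (limma adjusted p = 0.011) and -0.87 for Npas2, with Per3 (0.58), Nr1d2 (0.60), Ciart (0.33) and Tef (0.46) higher, which made 7 of 10 against 11.9%. The Arntl value of the knock-out lay at the threshold: of 28 fits without 1 animal of the arm, 21 ended its call, with differences in all 28 between -0.65 and -0.41 and the weakest without animal 4003 (limma adjusted p = 0.173), while its Dbp call stood in each. The knock-out Tef call ended without animal 4003 (0.42) or 4005 (0.42). Animal 4003 was left out in the same fit as 2003 and 6003 of the other genotypes. In the humanized group animal 6003 carried much of the difference. Without it the differences were -0.18 for Arntl (limma adjusted p = 0.58), -0.52 for Npas2, 0.55 for Nr1d2, 0.13 for Ciart and 0.24 for Tef, none of them called. The Nr1d2 and Tef calls also ended without any 1 of 10 other animals each. Without all 3 livers with the lowest Arntl, an alternative chosen after the data were seen, Dbp differed by 1.59 in the humanized group (limma adjusted p = 0.026). In the same humanized comparison of days, 2 of 3 stellate markers, 1 of 2 acinar markers and 1 of 5 hepatocyte markers were higher and Ighm was lower (-1.23), and in the knock-out one no marker of these cell types was called by limma. Their part was not tested.

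Among untreated livers, day 1 gave no call. In knock-out controls, day 1 minus the other days was -0.02 for Dbp and 0.00 for Arntl. In humanized controls it was -1.74 ± 0.50 for Dbp, a value opposite in sign to that of the PB arm, which just missed the threshold (limma adjusted p = 0.0501) and passed it in 10 of the fits without 1 animal, for example 5006 (limma adjusted p = 0.0264). It also passed, with limma adjusted p between 0.0099 and 0.0492, under quantile normalization, the mean of all probe sets, array weights, every array as its own sample and without the 3 livers with the lowest Arntl. Humanized controls of day 1 averaged 5.99 for Dbp, against 7.73 over the other days, and enter the PB comparison of day 1 above.

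Over the 6 days, the moderated F test called 6 of 10 genes in humanized PB livers (Arntl, Npas2, Per3, Dbp, Ciart and Tef, against 20.7% of all tested genes) and 5 of 10 in knock-out PB livers (Per3, Nr1d1, Nr1d2, Dbp and Tef, against 12.2%). In the wild type it called Tef in PB livers (1 of 10, against 23.4%) and Nr1d2 in control livers (1 of 10, against 12.2%). It called none in knock-out controls (against 9.84%) or humanized controls (against 6.81%) by limma.

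**Figure D4:**
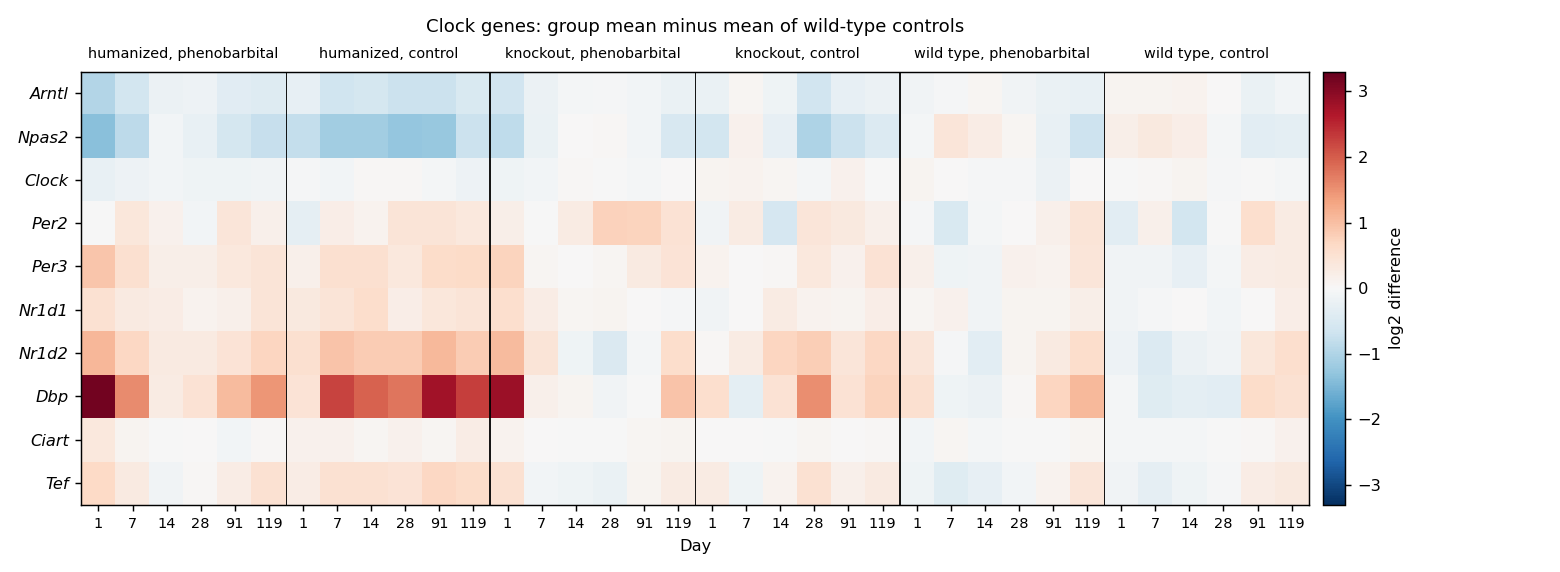
Heat map of the 10 genes (rows) in the 36 groups (columns, by genotype, treatment and day), coloured by the log2 difference of the group mean from the mean of wild-type controls. Humanized controls from day 7 on, and humanized and knock-out PB livers of day 1, share high Dbp, Nr1d2 and Per3 with low Npas2 and Arntl.

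From day 7 of dosing on, humanized PB livers held less Dbp on average than their controls, with no single day called. Dbp differed by -0.67 on day 7, -1.70 on day 14 (limma adjusted p = 0.0698), -1.28 on day 28 and -1.73 on day 91, and Arntl by 0.06, 0.38, 0.52 and 0.34. Single animals carried much of this on days 7 and 28. Leaving out 1 animal gave Dbp differences from -1.26 to -0.06 on day 7 and from -1.74 to -0.26 on day 28. They ran from -1.99 to -1.45 on day 14 and from -2.32 to -1.26 on day 91. On day 28, control 5017 had Dbp at 10.34, the other controls 5.91 to 6.52. On day 14, Npas2 was 6.99, 6.65, 7.45, 7.02 and 6.82 in humanized PB livers, against 6.25, 5.68, 6.05, 6.39 and 5.29 in humanized controls. Those groups did not overlap, and Npas2 was higher by 1.05 ± 0.31 (limma adjusted p = 0.0126). Tef was 8.67, 8.70, 8.20, 8.46 and 8.20, against 8.96, 9.26, 9.15, 8.91 and 9.04, again without overlap, and was lower at -0.62 ± 0.20 (limma adjusted p = 0.028). These 2 of 10 genes compare with 11.9% of all tested genes on that day. The Npas2 call ended without animal 6013 (0.94) or 5015 (0.89), and the Tef call without 6013 (-0.56), 6015 (-0.56), 5012 (-0.57) or 5013 (-0.60). On day 28 Npas2 was the 1 gene called (1.04, limma adjusted p = 0.0303, against 7.70% of all tested genes), and it was not without animal 5017 (0.64, limma adjusted p = 0.362), 6016 (0.95), 6017 (1.02) or 6019 (0.92). On days 7, 91 and 119 no gene of the 10 was called in humanized mice by limma, against 4.84%, 2.19% and 0.214% of all tested genes.

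In the knock-out, 3 of 10 genes were called on day 28, against 5.16% of all tested genes. Nr1d2 was 8.17, 9.15, 8.88, 9.03 and 7.92 in knock-out PB livers, against 10.61, 9.15, 9.74, 9.70 and 10.38 in knock-out controls, and was lower at -1.29 ± 0.27 (limma adjusted p = 0.00147). The groups did not overlap, but the lowest control (9.155) and the highest PB liver (9.146) nearly touched. The call ended in the fit of only these 10 arrays (limma adjusted p = 0.0767). Npas2 was higher by 1.07 and Tef lower at -0.72, but both calls ended without animal 3016, with differences of 0.58 (limma adjusted p = 0.311) and -0.33 (limma adjusted p = 0.358), and without 4020 (0.98 and -0.60). The Npas2 call also ended without 4016 (1.03) or 3020 (1.01). Dbp differed by -1.66 (limma adjusted p = 0.119). No gene was called on days 7, 14, 91 or 119, against 0.0158%, 0.325%, 3.45% and 0.111% of all tested genes. In the wild type no gene was called on any day, the lowest adjusted p being 0.162 by limma, against 2.72%, 8.79%, 5.55%, 2.13% and 0.0238% of all tested genes on days 7, 14, 28, 91 and 119.

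**Figure D5:**
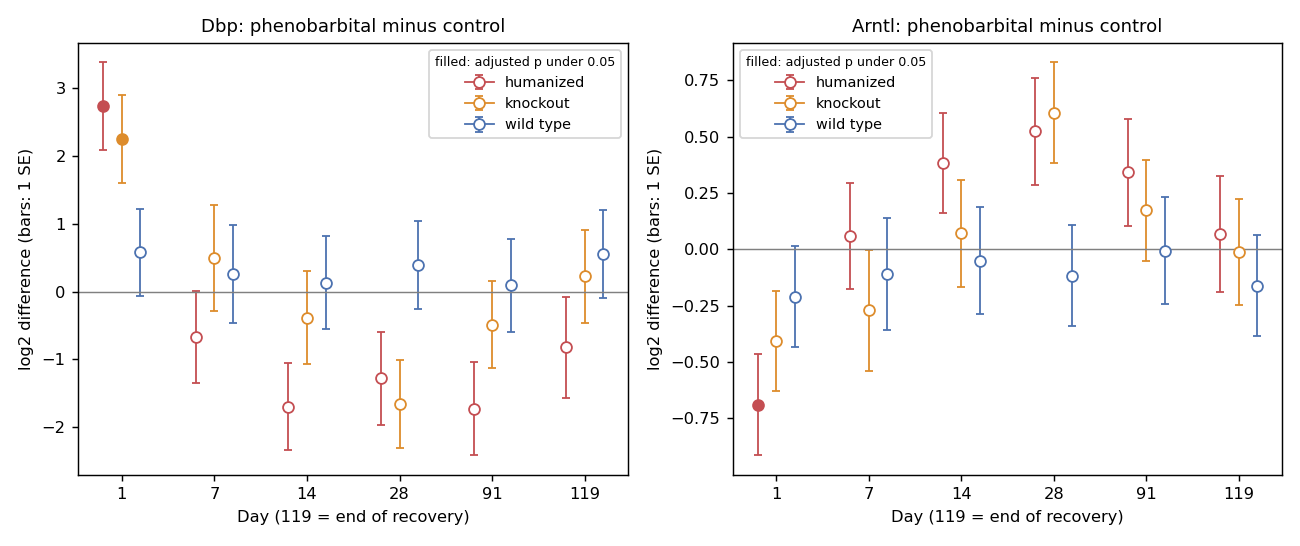
Log2 difference between phenobarbital and control livers by day for Dbp (left) and Arntl (right) in the 3 genotypes, with bars of 1 SE, filled where called. Dbp is positive on day 1 in humanized (2.73) and knock-out mice (2.25) and below 0 in humanized mice on each later day.

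Differences between PB and control livers averaged over the 5 dosing days join days of opposite sign, which cancel in part. Dbp differed by 2.73 on day 1 in humanized mice and was lower with PB on each later dosing day. In the knock-out Dbp differed by 2.25 on day 1 and was lower with PB on days 14, 28 and 91. The counts below apply to the mean only. In humanized mice 3 of 10 were called, against 32.4% of all tested genes: Npas2 averaged 6.45 in PB and 5.95 in control livers (0.49 ± 0.14, limma adjusted p = 0.00379), Clock 8.43 and 8.57 (-0.13 ± 0.04) and Tef 8.78 and 9.04 (-0.25 ± 0.09), a call that ended without animal 6002 (-0.22), 6025 (-0.23), 5007 (-0.22) or 5017 (-0.20). Dbp differed by -0.53 ± 0.30 (limma adjusted p = 0.176). In the knock-out, Clock was the 1 gene called (-0.13 ± 0.04, limma adjusted p = 0.0179, against 19.6% of all tested genes), and in the wild type none was by limma, against 31.5% and with Dbp at 0.29 ± 0.30. The Clock calls did not stand for the mean of its 4 probe sets (-0.06 in humanized and -0.05 in knock-out mice). On this mean, the PB effect on the 10 genes was not found to differ between genotypes. None was called by limma for knock-out minus wild type (against 13.4% of all tested genes) or humanized minus wild type (against 1.88%). Nr1d2 was closest, at -0.48 (limma adjusted p = 0.057) and -0.47 (limma adjusted p = 0.165). A mean over days cannot show genotype differences that change sign between days. For comparison, of 11 other clock genes tested, 4, 2 and 5 were called in humanized, knock-out and wild type mice, 1 of them higher in each. These counts are read beside the same shares of all tested genes. Per1 was among those called in all 3 genotypes, at -0.50, -0.47 and -0.29.

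At the end of recovery, wild type PB livers of day 119 differed from the other days of their arm in Npas2 (-0.76), Per3 (0.37) and Tef (0.56), 3 of 10 genes against 20.0% of all tested genes. Dbp was 8.51, 5.51, 5.97, 7.36 and 5.65 in them, a difference of 0.88 that did not pass (limma adjusted p = 0.224). The calls of Npas2, Per3 and Tef all ended without animal 2026, the liver with the highest Dbp of that group (limma adjusted p of 0.147, 0.424 and 0.076), and that of Per3 also without any 1 of 7 other animals. Nr1d2 was higher in wild type controls of day 119 (0.68, limma adjusted p = 0.0212, 1 of 10 genes against 12.3%) and lower in knock-out PB livers of day 28 (-0.85, limma adjusted p = 0.0109, 1 of 10 against 3.05%). The call in wild type controls ended without animal 1026 (0.67), 1028 (0.60), 1029 (0.69) or 1030 (0.64), and that in knock-out PB livers without 4016 (-0.74) or 4020 (-0.67). The remaining groups had no call among the 10 genes by limma when set against the other days of their arm. Over all tested genes, the same comparison called 0.198%, 0.515%, 0.460%, 1.28% and 18.6% in humanized PB livers from day 7 on, and 1.41%, 0.00%, 0.00%, 0.0158%, 2.04% and 9.85% in humanized controls from day 1 on. It called 0.00%, 0.0713%, 0.254% and 5.22% in knock-out PB livers of days 7, 14, 91 and 119, and 5.16%, 0.467%, 0.0634%, 0.00792%, 2.38% and 3.76% in knock-out controls. In the wild type it called 7.87%, 1.35%, 1.22%, 0.578% and 8.16% in PB livers of the first 5 days, and 1.58%, 0.317%, 0.285%, 0.0158% and 2.15% in controls of those days.

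Single livers lay far from the rest of their group along this axis. Animal 6003, a humanized PB liver of day 1, had the lowest Arntl of all (5.72) and the highest Dbp (11.30) and Ciart (6.19), with Per2 at 8.63, where the other 4 livers of its group had Per2 between 5.19 and 6.20. Animal 3016, a knock-out control of day 28, had Arntl at 5.88, Npas2 at 4.11, the lowest of all, Dbp at 10.47, and the highest Per2 (9.03) and Tef (10.60). Animal 5017, a humanized control of day 28, had Arntl at 6.48, Dbp at 10.34 and the highest Nr1d2 (10.65), against 8.12 to 8.20 for Arntl and 5.91 to 6.52 for Dbp in the other 3 livers. In each of these 3 livers Per2, Per3, Ciart, Dbp and Tef were above, and Arntl, Npas2 and Clock below, all others of the group. Animal 6003 also had the highest acinar marker level of all livers, 12.57, while 3016 had the lowest of its arm, 6.33, and 5017 had 6.81, beside an arm median of 6.77. Their hepatocyte markers averaged 13.98, 13.95 and 14.00.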

How the data were processed

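Per the labels, 1 biotin-labelled Affymetrix array was run per liver, and genotype, treatment, day and animal number come from the labels. The deposited values are log2 expression made by the authors with RMA, per the submitters' processing notes. The RMA version is not given in the sources used here. RMA compresses differences of dim and of near-saturated probe sets, and the number of arrays limits precision. Of 45101 probe sets, 34958 had 1 gene symbol in the platform annotation, 932 several and 9211 none, and only the first kind was used. RefSeq (GRCm38.p6) matched 34754 of them by Entrez number. Genes above their array's median on at least 3 arrays were tested. The Dbp probe set is of a kind that can match several transcripts.

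The model was limma 3.58.1 under R 4.3.3 (36 group means, eBayes, two-sided, 130 residual degrees of freedom, 61 contrasts and 6 F tests), a fit that assumes groups vary alike. It was tested on simulated data. Python 3.11.15 was used otherwise. Named genes are the 10 members, called members of gene lists (at most 4 per list and direction) and the genes most like Arntl or Dbp. The members and lists were chosen with earlier results of these data known. Alternatives varied normalization, filter, probe set rule, prior, array weights, the arrays fitted and the animals, of which 59 fits left out 1 per genotype. A fit named by 1 animal thus also left out animals of the other genotypes from the same arm and day, where present. Differences within a genotype depend on its own animal only, but the adjusted p values depend on all animals left out.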

Additional observations from a re-analysis of the deposited data

Results flagged for a closer look

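In 68 checks of Arntl and Dbp within groups of 4 or 5 samples, 7 found a liver far from the others of its group, by the ratio of its gap to the group's range. Chance alone flags about 1 in 20 such groups. For Arntl these were a knock-out control of day 1 (animal 3004) at 8.03, where the others had 8.20 to 8.26, a knock-out control of day 28 (3016) at 5.88, where the others had 8.01 to 8.41, a wild type PB liver of day 91 (2021) at 7.92, where the others had 8.26 to 8.31, a humanized PB liver of day 91 (6022) at 7.50, where the others had 8.19 to 8.32, and a humanized control of day 28 (5017) at 6.48, where the others had 8.12 to 8.20. For Dbp they were animal 2021 at 8.25, where the others had 5.49 to 6.08, and animal 5017 at 10.34, where the others had 5.91 to 6.52. Animals 2021 and 5017 were thus far from their groups in both genes, with low Arntl and high Dbp.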

How the results depend on the processing

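The 8 calls in humanized against wild type controls stood under every alternative run (leaving out an animal gave 8 to 8), and the mean of all probe sets added Clock. No called difference changed sign. Counts of members called moved as follows. In knock-out against wild type controls, 2 became 4 with only the compared arrays (2 to 4 leaving out an animal), Arntl joined with the mean of all probe sets (-0.25), and Per3 under quantile normalization, median centring and array weights. With only the compared arrays, the 3 calls of knock-out day 28 and that of humanized day 28 were lost. Without the 3 livers with the lowest Arntl, Dbp was called in humanized mice on day 14 (-1.70). For the mean of dosing days, 0 became 1 in the wild type with only the compared arrays (Arntl, -0.10; 0 to 0 leaving out an animal), 1 became 2 in the knock-out with array weights and without the 3 livers with the lowest Arntl (Per2 joined; 1 to 2), and humanized counts ran from 2 to 4. For knock-out minus wild type PB effects, 0 became 1 (Nr1d2) under quantile normalization and array weights (0 to 1 leaving out an animal), and humanized minus wild type stayed at 0 to 0. Of PB comparisons by day, 1 (humanized, day 1) had Arntl and Dbp called oppositely, and 0 did with the mean of all probe sets, array weights or only the compared arrays (0 to 1). Without the 3 livers it was knock-out day 1 instead (Arntl at -0.41, limma adjusted p = 0.0455). Of groups against the other days, 2 had Arntl and Dbp called oppositely (0 to 2 leaving out an animal). Only the humanized group did under quantile normalization, no filter, a trended robust prior and without the near-identical arrays of different labels. Only the knock-out group did with array weights, only the compared arrays and without the 3 livers. The F test called Arntl in 1 of 6 arms (0 with the mean of all probe sets; 0 to 1) and Dbp in 2 (1 to 3). Within groups, r between Arntl and Dbp was -0.805 after quantile normalization, -0.85 for the mean of all probe sets and -0.75 without the 3 livers, and -0.306 within wild type controls alone. Beyond those named in the text, the cause of these changes was not tested. Of differences of single genes, leaving out an animal kept 5603 on their side of the threshold, weakened 95 and strengthened 39, and other alternatives kept 1867, weakened 44 and strengthened 23. No paired analysis was possible because animal numbers belong to 1 group each and pair no livers. Dim members (Ciart, Per3, Nr1d1) limit what can be detected.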
